A study of Xenopus laevis with 5 samples.

Results

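The Fox, Sox, GATA, Klf, Tfap2, Grhl, Ets, Elf and T-box genes form a large part of the transcription factors that divide an early frog embryo into skin, nerve, gut and muscle. In epidermal explants of Xenopus laevis, members were taken as probe sets whose 1 platform gene symbol starts with fox, sox, gata and a digit, klf, tfap2, grhl, ets, elf and a digit, or tbx. The genes foxi1, foxi4.2, foxn4, foxa1 and klf17 were left out, while klf17.1, a separate symbol, was not. This gave 92 of 15491 probe sets, or 77 of 7531 genes with the homeologs .L and .S counted apart. The rule reads symbols and no measured value, though it was written with earlier results of these data known. Among the 92, tbxas1.L shares only its first letters with the T-box genes: it encodes thromboxane synthase, an enzyme.

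RNA was measured on Affymetrix arrays with 1 colour in 5 samples of explants. The ICD group (3 samples) came from embryos that received synthetic ICD mRNA as 2-cell embryos, and the HMM group (2 samples) from embryos that received HMM mRNA; all were grown in 0.1X MMR, a frog saline. The presumptive ectoderm was cut at stage 9 to 10, cultured in Danilchik's medium with 0.1% BSA, on fibronectin according to the design text, and harvested at the equivalent of stage 22. Neither abbreviation is spelled out in the labels. As background, ICD usually means the free intracellular part of Notch, an activator, and HMM a shortened human Mastermind, an inhibitor of the same targets. Both groups carry an injected mRNA. Uninjected explants were not analysed here, and it cannot be told which group moved. A gene that rose had more signal in ICD than in HMM and passed the test, and one that fell had less. How many explants made up a sample, and whether the samples came from separate batches of embryos, is not given in the sources used here, so the p-values measure the spread between these samples.

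The epidermis of the frog larva is built from a few layers and cell types that Notch signalling helps to apportion. Grhl and Tfap2 factors are known as activators of epidermal genes. Gata2 and Gata3 mark ectoderm that has taken the skin fate under BMP signalling, Klf factors act in the balance of growth and differentiation of epithelia, and Sox2, Sox3 and Sox11 belong to neural progenitors. Sox17, Gata4 to Gata6, Brachyury (tbxt) and Foxa4 mark endoderm, mesoderm and notochord, and Sox9, Sox10 and Foxd3 mark neural crest. All bind DNA, each family through its own domain, and all are read here only as mRNA.

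The arrays were close in scale and not in every other respect. Median signal intensity lay between 62.1 and 72.7 per array, and 8908 to 9463 probe sets per array lay above the value of 42.6 used as a filter. On the second principal component of all kept probe sets (27.2% of the variance), the scores were 32.8 for ICD replicate 1 and 33.5 for HMM replicate 1, with the other 3 arrays between -30.7 and -9.17. ICD replicate 3 had a median of 2.4 over its 27 poly-A control probe sets, against 301 to 347 on the other arrays. Of the epidermal marker genes on a fixed list, 14 of 15 on the array were bright enough to keep, and krt70.S, an epidermal keratin gene, read 11196.1 to 15645.6 in ICD and 11610.9 and 14504.9 in HMM. The labelled tissue therefore carried its markers in both groups. Over the kept genes of the ionocyte list the summed signal was 154 to 294 in ICD and 9849 to 18702 in HMM, and over the multiciliated cell list 251 to 1022 in ICD and 3612 to 6427 in HMM. All 8 ionocyte genes and 5 of 6 multiciliated genes fell, where 3.50% of all kept probe sets were called lower. The ionocyte genes foxi1.L, ca12.L, ca2.S, slc4a1.L and ubp1.L, and the multiciliated gene tekt2.L, read under 42.6 on every ICD array. They were kept through the HMM arrays alone, and probe sets kept in this way tend to show a gap. Of the ionocyte genes, 5 were still called without HMM replicate 2 and 7 without ICD replicate 2, while of the multiciliated genes 0 were called without either of these arrays, 2 without ICD replicate 3 and 3 without HMM replicate 1. Each member below was thus measured in explants whose signal for these cell types differed. In RNA of whole explants, fewer cells of a type and less RNA per cell cannot be told apart.

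Many of the members were too dim to test. Of the 92 probe sets, 40 (43.5%) lay above 42.6 on at least 2 arrays and were kept, where 64.4% of all probe sets were. These 40 stood for 33 genes, and the filter left out 52 probe sets of 47 genes. The share kept differed by family, with 2 of 2 grhl and 2 of 2 tfap2 probe sets, 7 of 9 ets and elf, 11 of 16 klf, 7 of 18 sox, 4 of 11 gata, 4 of 16 tbx and 3 of 18 fox. The forkhead and T-box families thus had the lowest shares kept, and the grhl and tfap2 shares rest on 2 probe sets each. The fox and klf shares are without the genes that the rule left out.

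**Figure D1:**
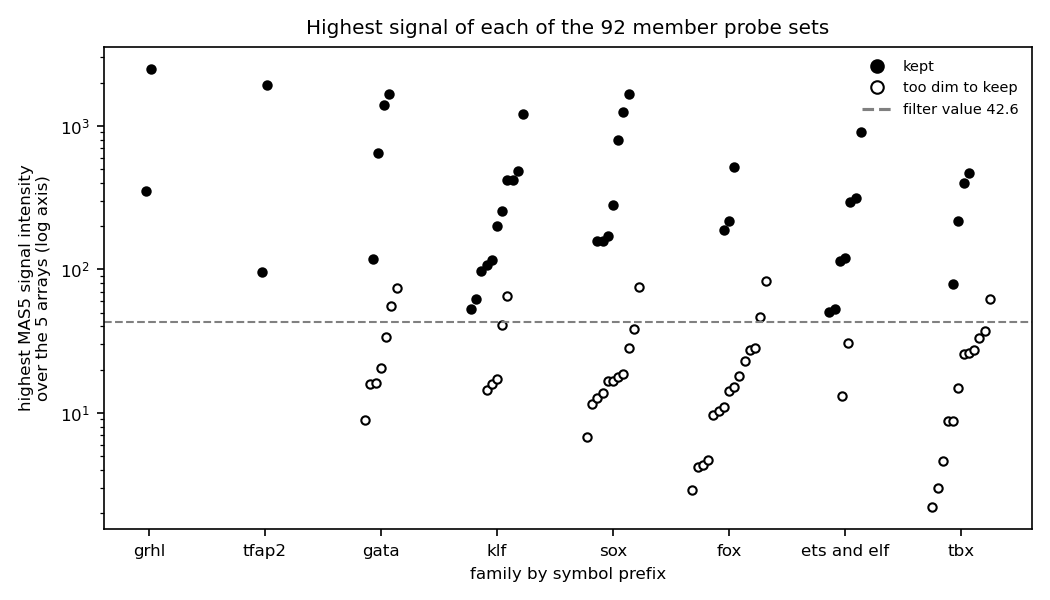
Highest signal intensity over the 5 arrays for each of the 92 member probe sets (log axis), by family. Filled points are the 40 kept probe sets, open points the 52 too dim to keep, and the dashed line is the filter value of 42.6. Both grhl and both tfap2 probe sets were kept, and most fox and tbx points lie under the line.

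The dim members were mostly markers of tissues other than skin. The 9 dim probe sets of the endodermal genes sox17a, sox17b.1, gata4, gata5 and gata6 read 0.8 to 73.7 on any array, with 1 of the 9, gata5.S, above 42.6 on 1 array. The 7 probe sets of mesoderm and notochord genes (tbxt, tbxt.2, tbx6, tbx6r, foxf1 and foxa4) read at most 37.0. Brachyury, encoded by tbxt.S and needed for posterior mesoderm, read at most 27.6, and foxa4.L and foxa4.S at most 2.9 and 4.3. None of the mesodermal probe sets reached the filter on any array.

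Some neural crest factors were dim as well. The 4 probe sets for sox9.S, sox10.L, foxd3.S and foxd3.L read at most 38.3, 16.6, 28.5 and 27.6. On a separate list of neural crest markers, 5 of 8 genes were bright enough to keep, such as pax3.L, which also marks the neural border, at 847.0, 2328.4 and 2133.4 in ICD and 924.9 and 1892.7 in HMM. The member tfap2a.L, described below, belongs to neural crest as well as to epidermis and was bright. The heart, limb and pharynx genes tbx1, tbx4, tbx5 and tbx20 read at most 62.0 over 8 probe sets, and the blood and vessel genes gata1 and sox18 at most 75.0 over 4. Among the 10 dim probe sets of other fox genes the highest reading was that of foxe3.L, a lens factor, at 83.5. Others in that group were foxh1.L, the DNA-binding partner of Nodal effectors (at most 23.1), foxc2.S (46.5), foxb1.S (10.3), foxd2.S (11.0), and the foxr1.L, foxd1 and foxd4l1 genes. A reading under the filter does not show that a gene is off: a probe set can be dim because its probes bind poorly. Gata6 is the 1 gene of this endodermal group with a kept probe set, for gata6.L.

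Of the 40 kept members 1 passed the test, sox11.S, which rose. No member fell. The test was limma on log2(signal + 5.9) over all 9981 kept probe sets, with Benjamini-Hochberg adjustment over all of them and a threshold of 0.05. Across all kept probe sets 1.55% were called higher and 3.50% lower (5.05% in all), so 1 higher and 0 lower of 40 is near that background. At an unadjusted p under 0.05 there were 8 members, 5 higher and 3 lower in ICD, or 20% of the 40. That again is near the share of 19.6% over all kept probe sets (9.52% higher and 10.1% lower). The groups did not overlap for 12 members, 7 higher and 5 lower in ICD, where 37.5% of all kept probe sets had groups that did not overlap (20.4% higher and 17.0% lower). The members' differences had a median of 0.079 on the log2 scale, beside 0.078 over all kept probe sets, and 72.5% of them were smaller than 0.5 in size, beside 64.6% over all.

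**Figure D2:**
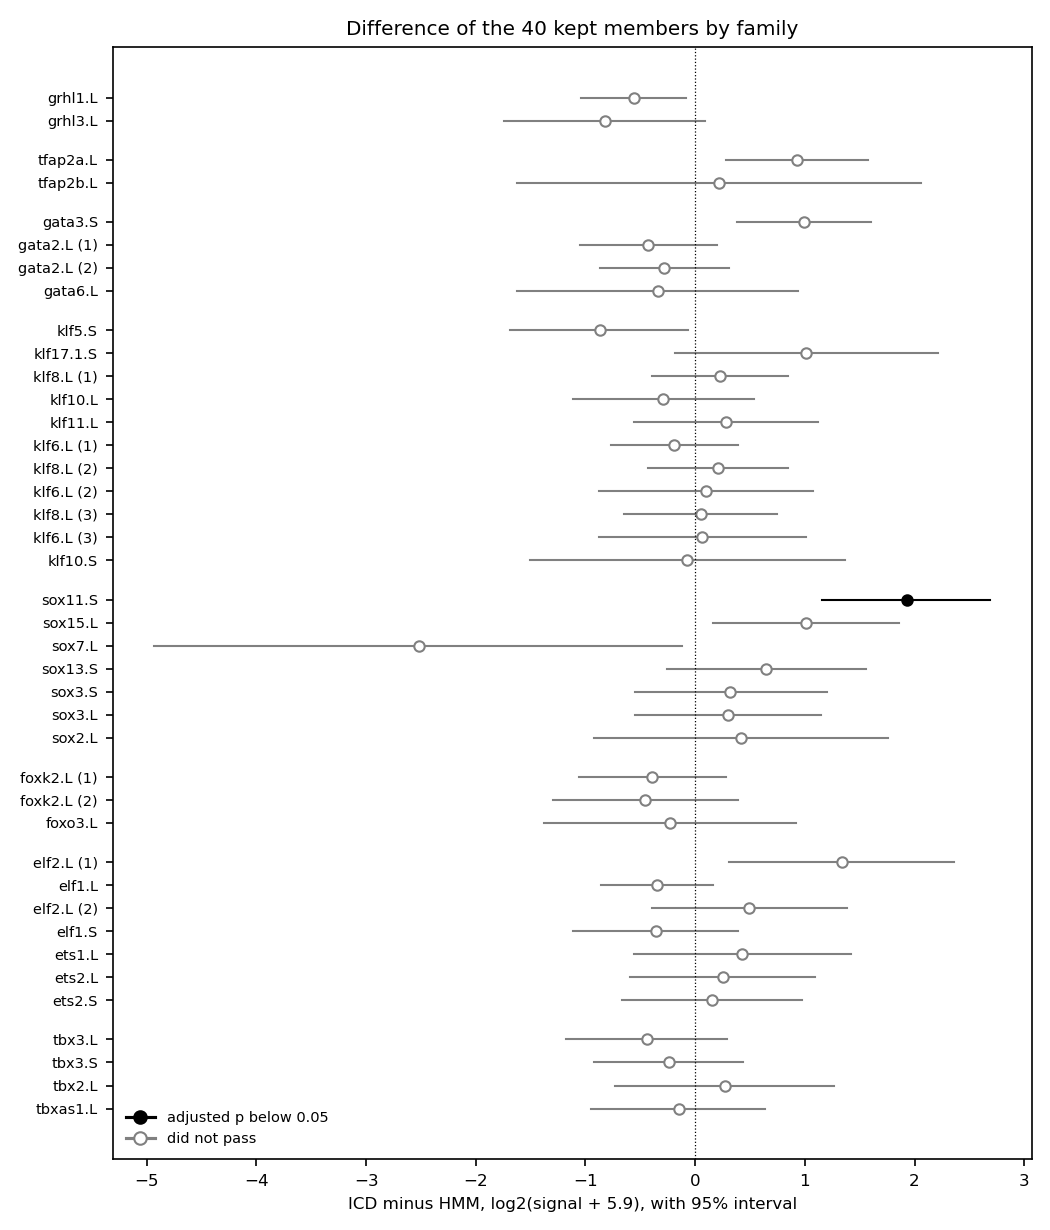
Difference of ICD minus HMM on the scale log2(signal + 5.9) for the 40 kept members, by family, with the 95% interval of the fit as a bar. Probe sets of the same gene are numbered. The filled point, sox11.S at 1.93, is the 1 member past the threshold, and sox7.L at -2.52 has the widest interval.

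Sox genes gave the largest differences in both directions. The mRNA of sox11.S, a SoxC factor known from neural progenitors and from many immature tissues, read 1016.7, 930.9 and 1256.9 in ICD and 380.2 and 197.7 in HMM. All 3 ICD arrays lay above both HMM arrays, by more than the spread within either group. The means were 1068 ± 169 (SD) over the 3 ICD samples and 289 ± 129 (SD) over the 2 HMM samples. On the log2 scale ICD stood 1.93 ± 0.32 (SE) above HMM, which is 3.8-fold with a 95% interval of 2.24 to 6.46 (limma adjusted p = 0.0241). The difference stayed between 1.46 and 2.39 with each array left out, but the call did not hold without ICD replicate 2 (limma adjusted p = 0.0693), ICD replicate 3 (0.0796) or HMM replicate 2 (0.156).

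A second probe set of the array is annotated to both sox11.L and sox11.S and is therefore no member. It read 138.1, 145.5 and 272.7 in ICD and 70.0 and 36.4 in HMM, with ICD above HMM throughout. Its difference of 1.69 ± 0.41 (SE) did not pass (limma adjusted p = 0.0667). Neural and cement gland markers are given beside sox11.S. Of 16 neural genes on the array 8 were kept, 7 had differences above 0 and 1, prph.S, rose. Their summed signal was 999 to 2194 in ICD and 731 to 890 in HMM. The prph.S probe set was kept through the ICD arrays alone, at 76.1, 48.4 and 81.8 against 5.5 and 19.2 in HMM. A probe set kept in this way tends to show a gap. The homeolog prph.L had a difference of -0.22. All 8 kept cement gland genes had differences above 0 and 3 rose (ag1.S, agr2.S and otx1.L). Their summed signal was 23352 to 30415 in ICD and 11572 to 12519 in HMM. The homeologs ag1.L (0.58) and agr2.L (1.39) were not called (limma adjusted p = 0.0848 and 0.133). These lists are not separate, since otx2.L and otx2.S stand on both. The agr2.L and agr2.S genes also stand on a goblet cell list, whose other kept gene, itln1.L, had -0.33. Over all 9981 kept probe sets, 5577 had differences above 0, and 1.55% were called higher and 3.50% lower. In the fits that lack ICD replicate 2 or HMM replicate 2, none of these neural and cement gland genes was called, and prph.S was called in 1 of the 5 reduced fits. Their part in the sox11.S result was not tested.

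The other Sox genes did not pass. For sox15.L, a Sox factor of frog ectoderm, the readings were 1657.7, 1074.9 and 1109.2 in ICD and 894.7 and 430.9 in HMM. The groups were apart, with a difference of 1.01 ± 0.36 (SE) (limma adjusted p = 0.181). With HMM replicate 2 left out it was 0.49, and with HMM replicate 1 left out it was 1.53. The mRNA of sox7.L, a SoxF factor linked to vessels and endoderm, read 10.1, 97.6 and 86.7 in ICD and 112.4 and 796.0 in HMM. Its difference of -2.52 ± 1.02 (SE) was the largest in size among the members and depended on which array was used: leaving out HMM replicate 2 gave -1.14, leaving out ICD replicate 1 gave -1.65, and leaving out HMM replicate 1 gave -3.91. It did not pass (limma adjusted p = 0.23).

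The neural progenitor factor genes sox2 and sox3 were not called, and their intervals were wide. Both homeologs of sox3 had differences near each other, 0.30 for sox3.L and 0.32 for sox3.S, with limma adjusted p of 0.701 and 0.684. In ratios of ICD to HMM their intervals ran from 0.685 to 2.21 for sox3.L and from 0.684 to 2.29 for sox3.S. For sox2.L the readings were 40.7, 94.1 and 171.5 in ICD and 46.3 and 88.4 in HMM, so the groups overlapped fully and the difference of 0.42 had an interval of -0.92 to 1.76. The interval reaches up to 3.39-fold higher in ICD, so the data do not show that sox2.L was alike in both groups. Another sox2.L probe set was too dim to keep (at most 17.8). The probe set of sox13.S, a SoxD factor, read 182 ± 84.5 (SD) over the 3 ICD samples and 107 ± 18.8 (SD) over the 2 HMM samples, and at 0.65 the gap stayed short of the threshold (limma adjusted p = 0.414).

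**Figure D3:**
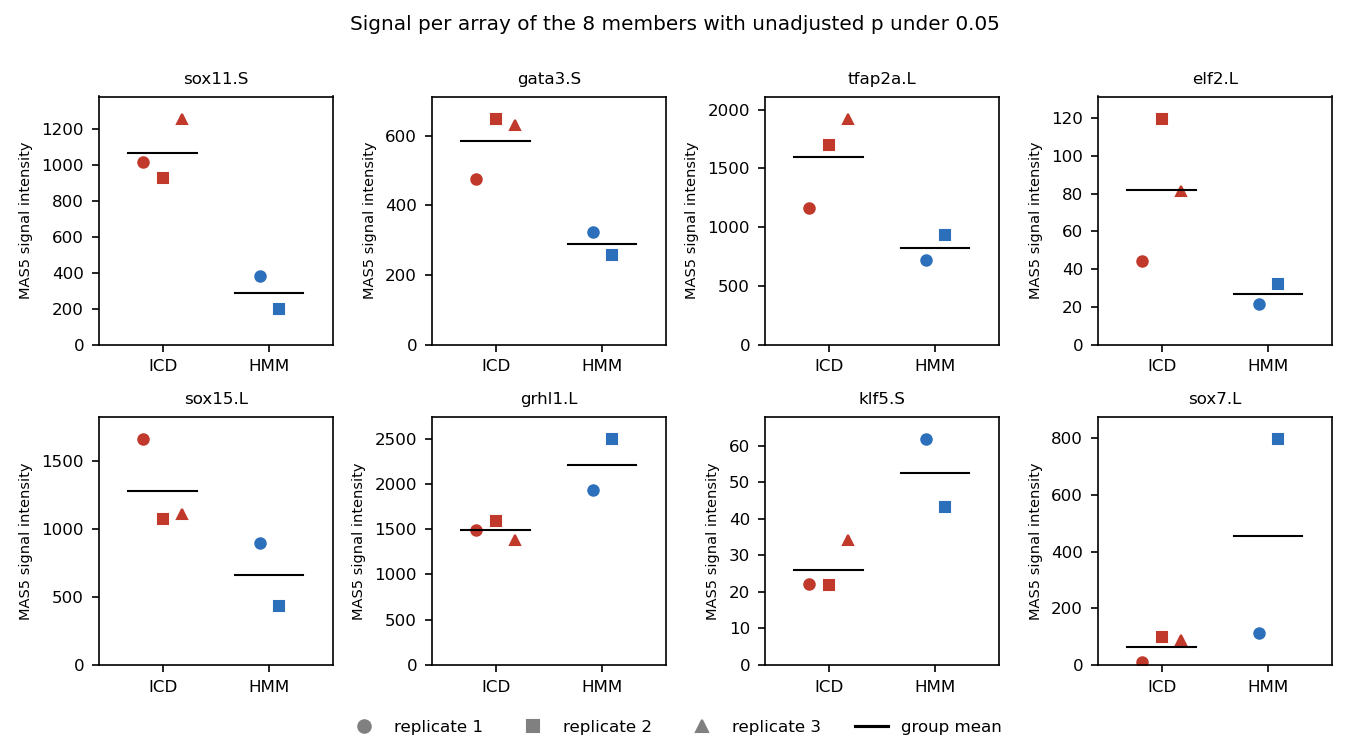
Signal intensity on each array for the 8 members with an unadjusted p under 0.05, ICD left and HMM right, each on its own linear axis from 0. Symbols mark the replicate number and bars the group mean. The groups are apart in all 8 panels, and in sox7.L the HMM mean rests on replicate 2 at 796.0.

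Of the factors that specify skin ectoderm, gata3.S and tfap2a.L lay higher in ICD and did not pass. For gata3.S the readings were 476.4, 648.4 and 631.7 in ICD and 322.4 and 258.7 in HMM. The groups did not overlap. Their means were 586 ± 94.9 (SD) over the 3 ICD samples and 291 ± 45 (SD) over the 2 HMM samples, and the difference was 0.99 ± 0.26 (SE), or 1.99-fold (limma adjusted p = 0.0846). The related gata2.L, which has the same place in ventral ectoderm, did not follow. Its first probe set read 970.3, 1021.1 and 882.4 in ICD and 1653.9 and 999.9 in HMM, and its second 1014.7, 1082.6 and 816.7 in ICD and 1401.0 and 981.8 in HMM. Both probe sets had overlapping groups with only HMM replicate 1 standing high, and their differences of -0.43 and -0.28 did not pass (limma adjusted p = 0.434 and 0.593). Without HMM replicate 1 they were -0.064 and -0.025. Whether gata2.L and gata3.S differ from each other in their response was not tested. For gata6.L, an endodermal and heart factor, the difference of -0.34 turned to 0.18 without ICD replicate 3.

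The signal of tfap2a.L, an AP-2 factor of epidermis and neural crest, was 1163.1, 1699.3 and 1918.7 in ICD and 716.0 and 930.8 in HMM. Every ICD reading was above both HMM readings, with means of 1594 ± 389 (SD) over the 3 ICD samples and 823 ± 152 (SD) over the 2 HMM samples. The difference of 0.93 ± 0.28 (SE), or 1.9-fold, missed the threshold (limma adjusted p = 0.119). Both gata3.S and tfap2a.L passed without ICD replicate 1, at differences of 1.13 and 1.14 (limma adjusted p = 0.0458 and 0.0322), in a fit that called 3.63% of all kept probe sets higher. Of the epidermal marker genes 4 of 14 rose and none fell, with all 5 arrays in the fit. In that fit 1.55% of all kept probe sets were called higher and 3.50% lower. Those that rose were krt18.1.L, krt18.1.S, epcam.L and tp63.L, while 6 of the 14 had differences below 0. At an unadjusted p under 0.05 in limma 1 lay lower. In the fits that lack ICD replicate 2 or ICD replicate 3, 0 were called, and without ICD replicate 1 all 4 were. Counts for the fits that lack an HMM array, which leave 1 HMM sample, are not given for this list. Across all reduced fits the differences of the 4 ran from 0.81 for epcam.L to 1.90 for tp63.L. The 14 marker genes summed to 55210 to 74583 in ICD and 55676 to 65020 in HMM. Their part in these values was not tested. For tfap2b.L the ICD arrays spread from 7.3 to 95.4 around HMM readings of 29.7 and 29.2. Nothing can be said of its direction: its difference was 0.22 with an interval of -1.62 to 2.06, and it was kept through ICD arrays alone.

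Both Grhl genes, encoding grainyhead factors of the surface epithelium, lay lower in ICD without passing. The Grhl1 protein is known in Xenopus as an activator of epidermal keratin genes, and Grhl3 for barrier formation and wound repair. The signal of grhl1.L was 1486.4, 1590.1 and 1381.8 in ICD and 1933.2 and 2491.6 in HMM. The groups were apart by a modest step, with a difference of -0.56 ± 0.20 (SE) and an interval of -1.04 to -0.086 (limma adjusted p = 0.182). For grhl3.L the readings were 214.3, 113.6 and 121.3 in ICD and 191.5 and 349.3 in HMM, which overlapped. Its difference was -0.82 ± 0.39 (SE), with a wide interval of -1.74 to 0.094 (limma adjusted p = 0.309). Without HMM replicate 2 the difference was -0.40.

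The CP2 genes are the closest relatives of Grhl in their DNA-binding domain. Of 4 measured genes 3 fell, where 3.50% of all kept probe sets were called lower. Both homeologs of tfcp2l1 are among the 3. The list was chosen with earlier results of these data known, so this count is no independent evidence. Whether CP2 and Grhl genes differ in their response was not tested. The mRNA of tfcp2l1.L read 196.2, 122.9 and 203.3 in ICD and 1076.1 and 1512.3 in HMM, a difference of -2.86 ± 0.31 (SE) (limma adjusted p = 0.0118), and tfcp2l1.S read 421.8, 329.0 and 450.9 in ICD and 911.0 and 988.8 in HMM, a difference of -1.24 ± 0.24 (SE) (limma adjusted p = 0.0337). In mammals Tfcp2l1 is a factor of pluripotent cells and of the epithelium of ducts, including the ion-transporting cells of the kidney. Both groups of both homeologs were well apart. The fall of ubp1.L was deeper, with readings of 2.7, 3.7 and 24.5 in ICD and 762.9 and 1190.2 in HMM and a difference of -6.14. The ubp1.L probe set was kept through the HMM arrays alone, and a probe set kept in this way tends to show a gap. The general factor gene tfcp2.L read 239.5, 351.3 and 373.8 in ICD and 489.6 and 434.3 in HMM, and was not called, at -0.54 (limma adjusted p = 0.355). The calls of tfcp2l1.L and ubp1.L were lost without HMM replicate 2, and tfcp2l1.S was still called in only 1 of the 5 reduced fits, the one that lacks ICD replicate 1. Beside the CP2 genes, the ionocyte and multiciliated cell markers fell as given above. Their part in these falls was not tested, and ubp1 stands on the ionocyte list itself.

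**Figure D4:**
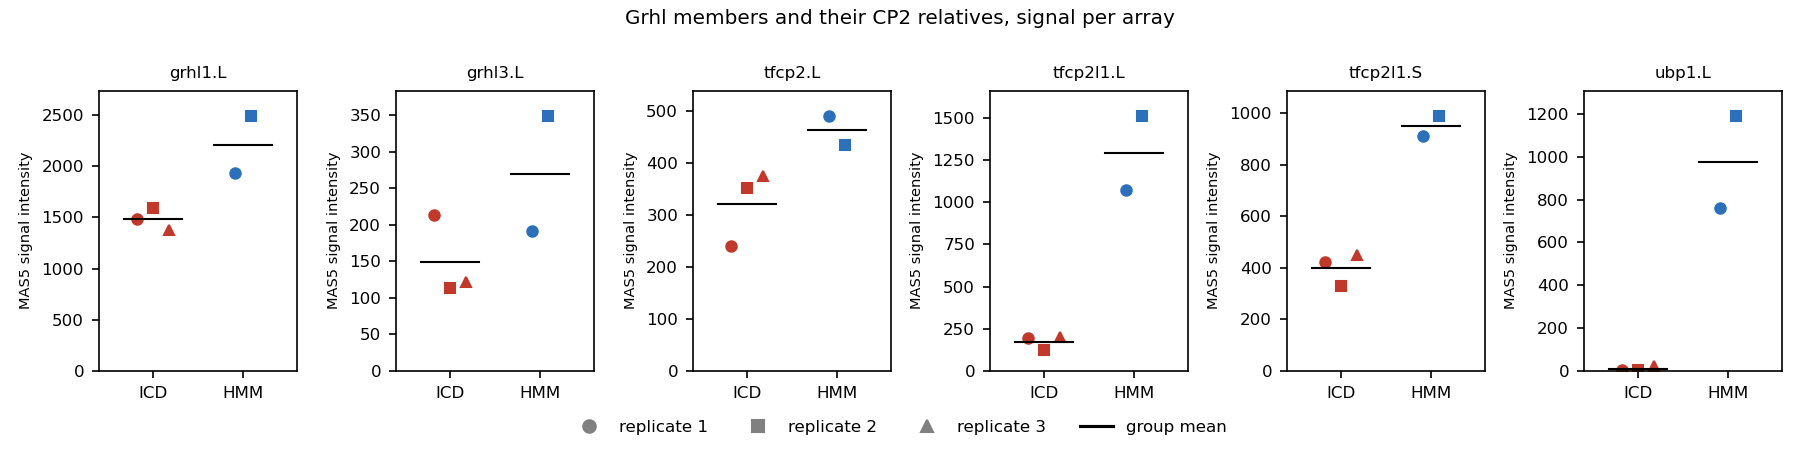
Signal intensity on each array for the 2 Grhl members and the 4 measured CP2 relatives, ICD left and HMM right, each on its own linear axis from 0. Bars are group means. The 3 called falls (tfcp2l1.L, tfcp2l1.S and ubp1.L) show wide gaps, and grhl1.L a narrow one.

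None of the 11 kept Klf probe sets of 7 genes passed, where 5.05% of all kept probe sets were called. At an unadjusted p under 0.05 in limma there was 1, beside 19.6% of all. For 9 of the 11 (81.8%) the difference was under 0.5 in size, beside 64.6% of all. The exceptions were klf5.S and klf17.1.S. Klf5, a factor of dividing basal epithelium in mammals, read 22.1, 21.8 and 34.1 in ICD and 61.7 and 43.2 in HMM, and ICD minus HMM came to -0.87 ± 0.34 (SE), short of the threshold (limma adjusted p = 0.22). This probe set was kept through the HMM arrays alone, and a probe set kept in this way tends to show a gap. The other klf5.S probe set was too dim (at most 40.6). For klf17.1.S the readings were 390.3, 485.9 and 248.3 in ICD and 311.7 and 98.6 in HMM. They overlapped, with a difference of 1.01 (limma adjusted p = 0.34), and it was 0.21 without HMM replicate 2.

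The remaining Klf genes had estimates close to 0, some with wide intervals. The 3 probe sets of klf6.L, an early response gene, had differences of -0.19, 0.095 and 0.064, and the 3 of klf8.L, a repressor, lay between 0.049 and 0.23. For klf6.L, the probe set with means of 1040 ± 218 (SD) over the 3 ICD samples and 1169 ± 5.23 (SD) over the 2 HMM samples gave an interval of -0.77 to 0.39. A 2-fold change of that probe set in either direction lies outside this interval. For klf11.L the difference was 0.28 (interval -0.56 to 1.12). The genes klf10.L and klf10.S, whose product is induced by TGF-beta in mammals, had -0.29 (-1.11 to 0.54) and -0.07 (-1.51 to 1.37). These intervals do not exclude a 2-fold change, and nor do those of the other klf6.L probe sets (-0.88 to 1.07 and -0.88 to 1.01). The klf9 probe sets and both klf2.S probe sets were too dim, klf2.S reading at most 16.0 on one and 64.7 on the other.

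Of the 7 kept Ets and Elf probe sets none passed, where 5.05% of all kept probe sets were called. Beside 19.6% of all kept probe sets, 1 of the 7 had an unadjusted p under 0.05 in limma. That was a probe set of elf2.L, an Ets-domain regulator, with readings of 44.2, 119.6 and 81.5 in ICD and 21.6 and 32.4 in HMM. The groups were apart by a difference of 1.34 ± 0.44 (SE) (limma adjusted p = 0.145), but the probe set was kept through the ICD arrays alone. The second elf2.L probe set, also kept through ICD, read 30.3, 48.5 and 52.5 in ICD and 37.4 and 21.6 in HMM, which overlapped, with a difference of 0.49. Its relative elf1 had estimates of -0.35 for elf1.L (interval -0.86 to 0.16) and -0.36 for elf1.S (-1.11 to 0.39). Both intervals span 0 (limma adjusted p = 0.428 and 0.588). The differences of ets1.L, ets2.L and ets2.S, which act downstream of MAP kinases, were 0.43, 0.25 and 0.15, with limma adjusted p of 0.627 and above.

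Few forkhead and T-box members could be tested, and none passed (0 at an unadjusted p under 0.05 in limma). Over all kept probe sets 5.05% were called and 19.6% had such a p. These counts lack the forkhead genes left out by the rule. Of those, foxi1.L, on the ionocyte list, fell with a difference of -7.22 (limma adjusted p = 0.0032). The left-out foxa1.S had -0.29 and was not called (limma adjusted p = 0.821). The 2 probe sets of foxk2.L, a widely expressed repressor, had differences of -0.39 and -0.46, and foxo3.L, a factor restrained by Akt, had -0.23 (limma adjusted p of 0.511, 0.545 and 0.837). The repressor gene tbx3 lay at -0.44 for tbx3.L and -0.24 for tbx3.S, and tbx2.L, its relative, at 0.27. In tbx2.L, ICD replicate 2 read 397.1, while ICD replicates 1 and 3 read 141.4 and 206.3 and the HMM arrays 186.4 and 188.0. The enzyme gene tbxas1.L lay at -0.15. All 7 kept probe sets under these 2 prefixes had differences under 0.5 in size, where 64.6% of all kept probe sets did. Their intervals were wide, such as -1.38 to 0.92 for foxo3.L and -1.18 to 0.29 for tbx3.L. Of the 3 fox intervals 0 lay within 1 log2 unit of 0, and of the 4 tbx intervals 2. The others do not exclude a 2-fold change.

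Homeologs and repeat probe sets served to compare readings of the same gene. Xenopus laevis is an allotetraploid, so many genes exist as an .L and an .S copy. Both copies were kept for 5 member genes, elf1, ets2, klf10, sox3 and tbx3. The .L minus .S differences in response were 0.012, 0.10, -0.22, -0.025 and -0.20 on the log2 scale, with intervals from -0.70 to 0.72 for elf1 and from -1.32 to 0.89 for klf10. None of the 5 passed in limma over the 690 pairs of the array, where 0.145% were called, and none had an unadjusted p under 0.05, which 10.1% of all pairs had. The pairs elf1, ets2 and sox3 had intervals within 1 log2 unit of 0. Of the genes with more than 1 kept probe set, klf6.L alone had differences of both signs, all within 0.2 of 0.

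Some members varied with the replicate number. In 8 of 40 members (20%) both replicate 1 arrays read below the other 3 arrays, and in 1 (2.5%), ets1.L, above them, where 15.1% and 16.6% of all kept probe sets did so. The share below was near that of all kept probe sets, and the share above was lower than theirs. Neither was tested, so no result about the members is drawn from them. An example with replicate 1 below is klf10.S, at 52.7, 159.3 and 125.1 in ICD and 57.1 and 198.9 in HMM. The reading of foxo3.L was 79.4, 185.6 and 102.2 in ICD and 85.2 and 215.4 in HMM. The others were klf11.L, sox2.L, tbx2.L, tbxas1.L and 2 probe sets of klf6.L. In klf10.S and foxo3.L the replicates of a group differed more than the groups did.

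Leaving out arrays changed calls more often than directions among the 8 members with an unadjusted p under 0.05. All 8 kept their sign with each array left out, which follows from groups that do not overlap. Without ICD replicate 1 there were 4 calls (sox11.S, gata3.S, tfap2a.L and elf2.L), in a fit that called 8.45% of all kept probe sets. Without HMM replicate 1 there was 1 call (sox11.S), beside 3.37% of all. None was called in the fits that lack ICD replicate 2, ICD replicate 3 and HMM replicate 2, in which limma called 0.220%, 1.51% and 0.110% of all.

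**Figure D5:**
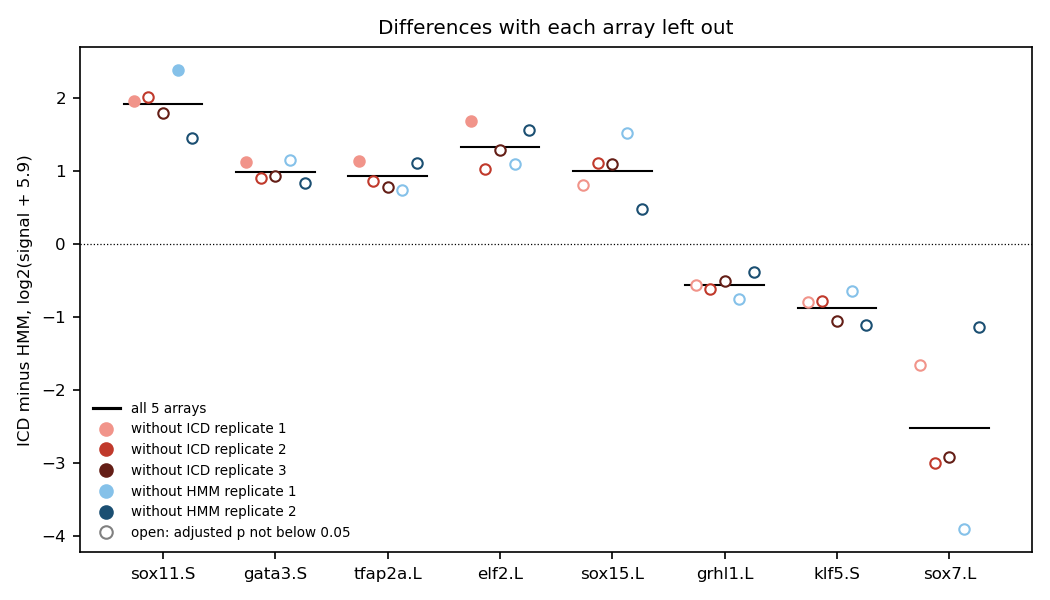
Differences of ICD minus HMM on the scale log2(signal + 5.9) for the 8 members with an unadjusted p under 0.05. Black bars are all 5 arrays, points are the fits with 1 array left out, and filled points passed an adjusted p of 0.05. The value of sox7.L runs from -3.91 to -1.14, and sox11.S passes in 2 of the 5 reduced fits.

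Genes of the same DNA-binding families whose symbols start otherwise were counted from a fixed list. Of 28 measured relatives 3 fell and none rose (6 lay higher at an unadjusted p under 0.05 in limma). Those that fell were the CP2 genes tfcp2l1.L, tfcp2l1.S and ubp1.L described above. The 7 Ets-domain relatives, the 3 zinc finger genes close to Klf, the 5 genes of GATA-type zinc fingers and the 9 of the HMG box did not pass. Examples are etv4.L, a target of FGF signalling, with a difference of 0.85 (limma adjusted p = 0.131), and tcf7l1.L, the Wnt-pathway repressor of the HMG box group, with 0.74 (limma adjusted p = 0.149). The list's median was 0.37, beside 0.078 over all kept probe sets, of which 1.55% were called higher and 3.50% lower.

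A list of partners and regulators of the members was counted in the same way. Among 39 measured genes there was 1 that rose, and none fell (4 higher and 1 lower at an unadjusted p under 0.05 in limma). The median was 0.23, beside 0.078 over all kept probe sets, of which 1.55% were called higher and 3.50% lower. The riser was tle5.L, a short Groucho-family protein that modulates corepression, with readings of 298.3, 411.6 and 319.9 in ICD and 136.2 and 117.7 in HMM and a difference of 1.38 ± 0.26 (SE) (limma adjusted p = 0.0321). The groups were well apart, though only the reduced fit that lacks ICD replicate 1 still called it. Its homeolog tle5.S had 0.82 and did not pass. Of 9 measured regulators of Foxo proteins none passed, with 8 differences below 0, 1 above and a median of -0.43. Over all 9981 kept probe sets 4404 had differences below 0. The Foxo-binding 14-3-3 genes ywhab.S and ywhae.S lay nearest 0, at -0.045 and -0.015, while ywhab.L had -0.47. The largest in size was that of pik3r1.S, at -0.79 (limma adjusted p = 0.142). The gene kctd15.L, an inhibitor of AP-2, had 0.15. The octamer-factor gene pou2f1.S, a Sox partner, had 1.27 (limma adjusted p = 0.0875).

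Genes commonly given as targets of these factors in surface epithelium moved in both directions. Among 36 measured genes 7 rose and 1 fell, and the other 28 were not called, with a median of -0.044. Over all kept probe sets 1.55% were called higher and 3.50% lower, with a median of 0.078. The list was chosen with earlier results of these data known, so its counts are no independent evidence about targets. Among those that rose were 4 simple-epithelial keratin genes, namely krt18.1.L (1.43) with krt18.1.S (1.51), and krt19.S (2.22) with krt19.L (1.73). The others were cldn1.S (1.66), a tight junction gene, tp63.L (1.56), a regulator of basal epidermis, and epcam.L (0.94), an epithelial adhesion gene. All of these values are log2 differences. The genes krt18.1.L, krt18.1.S, epcam.L and tp63.L are the 4 that rose among the epidermal markers above. Most of those markers stand on this list as well, so the counts of these lists are not separate. The faller was rab25.L, a GTPase gene of epithelial vesicle traffic, which averaged 356 ± 89.6 (SD) over the 3 ICD samples and 1361 ± 143 (SD) over the 2 HMM samples and so fell by 1.94 on the log2 scale. The homeologs epcam.S (0.37) and rab25.S (-0.77) were not called (limma adjusted p = 0.38 and 0.178). The epidermal keratin genes krt12.4.L and krt12.4.S had differences of -0.14 and -0.49 and did not pass (limma adjusted p = 0.689 and 0.22). Without ICD replicate 2 or HMM replicate 2, none of the 8 calls held. None of the lists was tested as a set.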

How the data were processed

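Each deposited value is a linear signal intensity of 1 probe set on 1 array. MAS5 is the tool that the submitters' processing notes name, with no version or settings. MAS5 subtracts mismatch signal, so dim probe sets carry large relative errors, and it scales arrays to a common mean (2% trimmed mean 200.03 on every array). The number of arrays limits precision.

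From 15611 probe sets, 120 controls were left out. The platform annotation gave 9304 of the rest 1 symbol, 195 several and 5992 none. Of 77 member symbols, all but klf9-b matched their RefSeq name by gene ID (assembly Xenopus_laevis_v10.1). The pseudocount in log2(value + 5.9) was the 10th percentile of all values, so folds of dim genes are understated. The filter of 42.6 was the 40th percentile, to be passed on at least 2 arrays (9981 kept). The test was limma's lmFit and eBayes with trend (limma 3.58.1, R 4.3.3), all 5 arrays, two-sided, Benjamini-Hochberg over all kept probe sets. Figures used matplotlib 3.10.9. In list counts, the brightest kept probe set stood for a gene. On simulated data for this comparison (9981 probe sets), changes of 2 and 4 log2 units were called in 83% and 100% of 100 each, with 12 false calls. The simulated arrays were independent, with each spread drawn toward the median spread, whereas on the real arrays deviations were correlated between the groups. These shares are therefore not the sensitivity on the real arrays, and changes under 2 log2 units were not simulated.

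Named members were all called ones, up to 4 per family with the smallest p, up to 3 with the highest mean, both homeologs of tested pairs, and a fixed set of skin and neighbouring factors. Members, lists and alternatives were chosen with earlier results of these data known. Sequences were not used here.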

Additional observations from a re-analysis of the deposited data

How the results depend on the processing

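Quantile normalization, median centring, no pseudocount or 4 times the pseudocount, eBayes without trend or robust, a filter raised to the 60th percentile, a 2-fold minimum, 1 probe set per gene, and adding probe sets of several symbols (chosen after seeing the data) left 1 member called higher, sox11.S, and 0 lower. With no filter 1 member was also called lower, a dim klf2.S probe set (-2.12) that then entered the test. At an adjusted p under 0.1, 857 probe sets and 2 higher members passed. With 1 array left out, called probe sets ranged from 11 (without HMM replicate 2) to 843 (without ICD replicate 1), and members called higher from 0 to 4, in fits with fewer samples. No homeolog pair of a member passed under any alternative, and the median of the members ran from -0.19 (filter at the 60th percentile) to 0.22.

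The groups share replicate numbers 1 and 2, and nothing in the labels says that a number marks a shared source. Deviations from the group means correlated at 0.65 for the 2 arrays of number 1 and at 0.51 for those of number 2. These values are across 9981 probe sets, which are not independent. With only 2 HMM arrays their deviations are equal and opposite, so the second value is not independent of the first. ICD replicate 3 and HMM replicate 2, of unlike number, correlated at 0.40. The correlations therefore cannot decide whether arrays of the same number belong together. With the replicate block, which leaves 1 residual degree of freedom, 1714 probe sets (17.2%) passed. Among the members 5 were higher (sox11.S, gata3.S, tfap2a.L, elf2.L and sox15.L) and 1 lower (sox7.L). ICD replicate 3 has no HMM array of its number. Each block difference is therefore the same as without ICD replicate 3, and is no separate evidence on direction. Under the block, as without that array, sox2.L (-0.04), gata6.L (0.18), tfap2b.L (-0.43) and 2 probe sets of klf6.L (-0.093 and -0.25) turned direction. None of them was called.

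With 1 array left out, these uncalled members turned direction: ets1.L (-0.17 to 1.04), klf8.L (-0.036 to 0.45 and -0.052 to 0.25), sox2.L (-0.04 to 0.92), ets2.L (-0.044 to 0.50), tbx2.L (-0.13 to 0.60), gata6.L (-0.78 to 0.18), foxo3.L (-0.87 to 0.41), tbxas1.L (-0.53 to 0.22), ets2.S (-0.17 to 0.46), tfap2b.L (-0.43 to 1.04), klf6.L (-0.43 to 0.62 and -0.25 to 0.36) and klf10.S (-0.92 to 0.78). The cause was not tested. Signal over background limited the rest, since 52 of 92 members were too dim to test.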
